A study of Mus musculus with 5 samples.

Results

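Insulin-like growth factor (IGF) genes were examined in F9, a line of mouse embryonal carcinoma cells that turns towards extra-embryonic endoderm under retinoic acid. The 10 genes were the 7 IGF binding protein genes Igfbp1 to Igfbp7, the ligand gene Igf1 and the receptor genes Igf1r and Igf2r, out of 15967 genes with a named probe on the array. They were selected from an earlier look at the difference between control and Sox7/Sox17 knockdown arrays. That difference is therefore given for them as a description, without a p-value, and is not support for anything. The 2 control arrays came from cells labelled as control, and the 3 knockdown arrays from cells with a double knockdown of Sox7 and Sox17. Retinoic acid was given to all 5 samples. The sources used here do not give its dose or duration, the knockdown reagent, the treatment of the control cells or the number of clones. The labels do not say that the arrays of a group came from separate cultures, so all errors and p-values measure the spread between these arrays, which may be technical.

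IGF1 and IGF2 are secreted ligands that act through the receptor tyrosine kinase IGF1R to promote growth and survival. IGF2R, also the cation-independent mannose 6-phosphate receptor, binds IGF2, removes it by endocytosis, and carries newly made lysosomal enzymes to the endosome. The binding proteins IGFBP1 to IGFBP6 hold IGFs with high affinity in extracellular fluid and can either limit or prolong their action, while IGFBP7 binds IGFs weakly. In early mouse development the embryo and its extra-embryonic membranes make IGF ligands, and Igf2 and Igf2r are imprinted genes that oppose each other in growth control.

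Promoters are shown first for 4 genes, the pair that were lower in knockdown cells and the pair of binding protein genes with the largest differences. Each sequence runs from 250 bases before to 50 bases after the start of the annotated transcript, read 5′ to 3′ from RefSeq on build GRCm38.p6. Capitals mark ACAAT or its reverse complement ATTGT, a core bound by SOX proteins, the GATA-type sequence AGATAA or its reverse complement TTATCT, and TATAAA on the transcript strand. The Igf1 window is chr10:87860861-87861160 (plus strand), that of Igf2r is chr17:12769657-12769956 (minus strand), that of Igfbp5 is chr1:72874816-72875115 (minus strand) and that of Igfbp7 is chr5:77407996-77408295 (minus strand).
Igf1: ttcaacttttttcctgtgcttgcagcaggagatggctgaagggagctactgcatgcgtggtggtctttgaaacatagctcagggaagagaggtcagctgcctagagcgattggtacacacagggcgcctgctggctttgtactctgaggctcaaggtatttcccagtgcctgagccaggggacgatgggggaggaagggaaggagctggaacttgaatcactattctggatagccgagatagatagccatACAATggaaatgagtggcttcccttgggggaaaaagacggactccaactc
Igf2r: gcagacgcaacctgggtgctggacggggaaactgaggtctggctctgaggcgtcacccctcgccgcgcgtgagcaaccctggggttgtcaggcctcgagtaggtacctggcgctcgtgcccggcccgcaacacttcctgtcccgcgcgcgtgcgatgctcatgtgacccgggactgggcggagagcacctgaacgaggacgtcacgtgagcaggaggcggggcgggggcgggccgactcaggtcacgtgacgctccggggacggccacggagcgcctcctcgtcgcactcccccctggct
Igfbp5: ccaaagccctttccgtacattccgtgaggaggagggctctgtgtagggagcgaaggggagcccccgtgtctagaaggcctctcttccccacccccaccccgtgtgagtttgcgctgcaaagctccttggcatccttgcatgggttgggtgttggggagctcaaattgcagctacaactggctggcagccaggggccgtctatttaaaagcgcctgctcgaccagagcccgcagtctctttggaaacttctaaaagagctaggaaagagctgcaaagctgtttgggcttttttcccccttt
Igfbp7: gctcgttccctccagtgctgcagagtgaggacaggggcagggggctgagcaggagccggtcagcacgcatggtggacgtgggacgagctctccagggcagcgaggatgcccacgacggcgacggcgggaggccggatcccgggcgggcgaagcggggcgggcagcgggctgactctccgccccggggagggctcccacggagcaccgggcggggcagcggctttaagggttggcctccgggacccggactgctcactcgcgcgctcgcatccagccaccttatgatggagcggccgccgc

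All 10 genes had a promoter in the RefSeq table, with 11 windows because Igfbp2 has a pair of them. ACAAT or ATTGT occurred in 2 of the 11 windows, against 31.0% of all 32851 windows of the same length. In Igf1 it began at the first base of the annotated transcript, and in Igfbp1 it began 62 bases upstream of the start. The longer form AACAAT or ATTGTT, which contains the core, occurred in 0 of the 11, against 10.7% of all windows. AGATAA or TTATCT also occurred in 0 of them, against 11.2%. TATAAA stood 28 bases upstream of the Igfbp4 start, the single match of that motif among the 11 windows, where 8.32% of all windows held one. The share of G or C ranged from 49.7% in Igfbp6 to 76.0% in Igf1r. The Igf1 window was 52.3% G or C with 6 CpG dinucleotides, close to the medians of 52.7% and 7 over all windows. Igfbp5 had 56.3% with 10 CpG, Igf2r 70.7% with 34 and Igfbp7 73.3% with 33. These matches describe letters and were not tested for binding.

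Of the 10 genes, Igfbp3 had no named probe in the table and was not analysed here. Igfbp1, which encodes a liver and decidua binding protein, had 1 probe, and it lay below 0 on all 5 arrays, between -18.0 and -9.67 intensity units. A probe counts as above noise when it exceeds a threshold of 20.1 to 20.2 units, set on each array from the size of its own values below 0. The other 8 genes had a probe above that threshold on at least 2 of the 5 arrays, and only such probes entered the fit across the table. Differences are knockdown minus control on the log2(intensity + 16) scale, which understates the change of dim probes. A gene is called where its limma adjusted p is below 0.05.

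Among all 9685 genes in the fit, 17.0% were called, 8.99% as higher and 7.97% as lower in knockdown cells. Of the 8 IGF genes in the fit, 5 were called, 3 higher (Igfbp2, Igfbp5 and Igfbp7) and 2 lower (Igf1 and Igf2r). Since the genes were picked on this contrast, nothing is read from that count. Leaving out control replicate 1 gave 0 called IGF genes, leaving out control replicate 2 also gave 0, and leaving out knockdown replicate 3 left Igf1 as the only one. In 5 of the 8 genes all knockdown arrays were above all controls, in 2 all were below, and in 1 the groups overlapped. Over all genes in the fit, the shares above and below without overlap were 26.7% and 24.9%. The median difference of the 8 genes was 0.440, against 0.005 over all genes. In bulk RNA, fewer cells of a type and less RNA per cell cannot be told apart.

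The ligand gene Igf1 had the largest difference of the set. Its probe (ILMN_2769884) read 193 and 162 units in the control arrays and 37.2, 19.2 and 2.06 units in knockdown replicates 1, 2 and 3. Both control arrays were far above every knockdown array, and the knockdown arrays spread widely among themselves. Of the knockdown arrays, replicate 1 alone exceeded the noise threshold, so the level in knockdown cells was measured on 1 of 3 arrays. Without the control arrays the probe would not have passed the noise filter. The means were 178 ± 21.5 (SD, n = 2) and 19.5 ± 17.6 (SD, n = 3), a difference of -2.58 (SE 0.424) on the log2 scale with the offset of 16. The size depends on that offset, from -1.55 with an offset of 64 to -3.33 with an offset of 4.

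The receptor gene Igf2r was lower in knockdown cells by a smaller amount. Its probe (ILMN_2589275) read 1088 and 1061 units in control cells and 654, 803 and 760 units in knockdown cells. All knockdown arrays lay below both control arrays, and knockdown replicate 1 was the lowest. The difference was -0.54 (SE 0.120), from 1075 ± 19.0 (SD, n = 2) to 739 ± 77.1 (SD, n = 3), and 7.71% of all genes had a more negative one. The probe does not tell the parental alleles of this imprinted gene apart.

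Igf1r, the signalling receptor for both ligands, did not separate the groups. Its probe (ILMN_1239663) read 43.3 and 47.0 units in control cells and 47.7, 44.6 and 36.9 units in knockdown cells. The control values lay inside the knockdown range. The difference was -0.054 (SE 0.118), with a 95% interval from -0.34 to 0.23 on the log2 scale. At a signal this near the noise threshold the offset compresses differences.

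**Figure D1:**
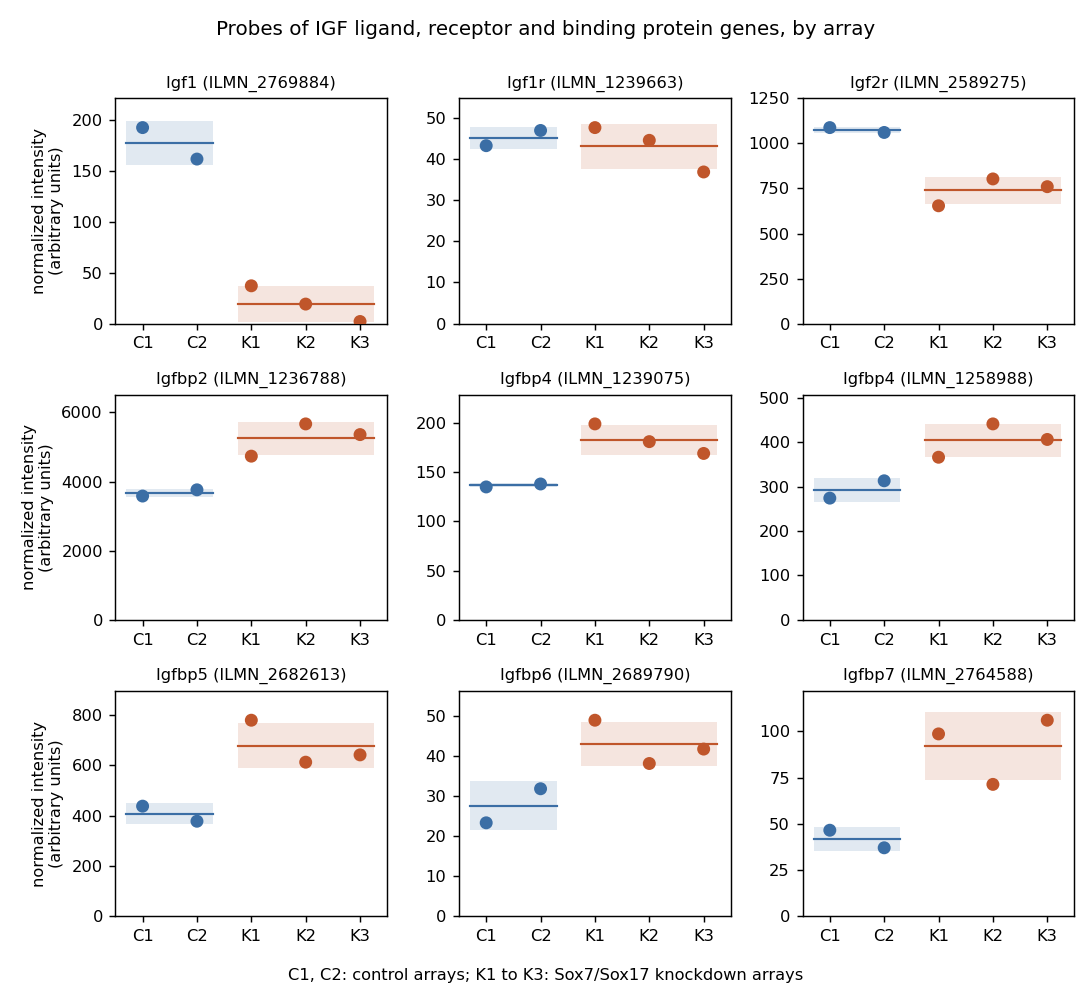
Normalized intensity (arbitrary units) on each array for the 9 probes of 8 IGF genes that passed the noise filter, with control arrays C1 and C2 in blue and knockdown arrays K1 to K3 in orange. Lines are group means and bands are 1 SD; Igf1 reads 193 and 162 units in control and 37.2 or less in knockdown arrays, the Igf1r groups overlap, and each binding protein probe shown reads higher on all 3 knockdown arrays.

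The 5 binding protein genes that passed the noise filter read higher on all knockdown arrays than on both controls, as did 26.7% of all genes, and 3 of the 5 were called. Since they were picked on this contrast, this is a description. Igfbp2, an abundant fetal binding protein, read 3583 and 3763 units in control cells and 4737, 5670 and 5361 units in knockdown cells (ILMN_1236788). The lowest knockdown array was above both controls by 0.33 or more on the log2 scale. The difference was 0.51 (SE 0.115), from 3673 ± 127 (SD, n = 2) to 5256 ± 475 (SD, n = 3).

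Igfbp5, which binds matrix as well as IGFs, lies next to Igfbp2 on chromosome 1 with 0 other genes starting between them in the RefSeq annotation. Its probe (ILMN_2682613) read 438 and 378 units in control cells and 780, 613 and 642 units in knockdown cells. The groups were separate, and knockdown replicate 1 was the highest array for Igfbp5 while it was the lowest knockdown array for Igfbp2. The difference was 0.71 (SE 0.141), from 408 ± 42.4 (SD, n = 2) to 678 ± 89.3 (SD, n = 3), a ratio of 1.63 on the offset scale.

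Igfbp7, the low-affinity binding protein also found in vascular basement membrane, had 3 probes, of which 1 gave a signal. The probe above noise (ILMN_2764588) read 46.5 and 37.0 units in control cells and 98.6, 71.3 and 106 units in knockdown cells. These groups did not overlap, and the difference of 0.89 (SE 0.173) was the largest among the binding proteins, with 2.47% of all genes more positive. The other Igfbp7 probes, ILMN_2447512 and ILMN_2634286, were below 0 on all 5 arrays, from -27.2 to -6.42 units, and carry no comparison. The Igfbp7 difference therefore rests on 1 of 3 probes.

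Igfbp4, whose protein mostly restrains IGF action, had 2 probes that gave like differences. The brighter probe (ILMN_1258988) read 274 and 313 units in control cells and 366, 441 and 406 units in knockdown cells. The dimmer probe (ILMN_1239075) read 135 and 138 units in control cells and 199, 181 and 169 units in knockdown cells. For both probes all knockdown arrays were above both controls, by 0.44 (SE 0.122) and 0.38 (SE 0.107) on the log2 scale. The gene was not called. The array order within the knockdown group differed between the probes, with replicate 1 lowest for the brighter and highest for the dimmer one.

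Igfbp6, which prefers IGF2 over IGF1, was near the noise threshold. Its probe (ILMN_2689790) read 23.3 and 31.8 units in control cells and 48.9, 38.1 and 41.7 units in knockdown cells. The groups were separate by 0.18 on the log2 scale, and the difference was 0.44 (SE 0.136). The gene was not called.

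**Figure D2:**
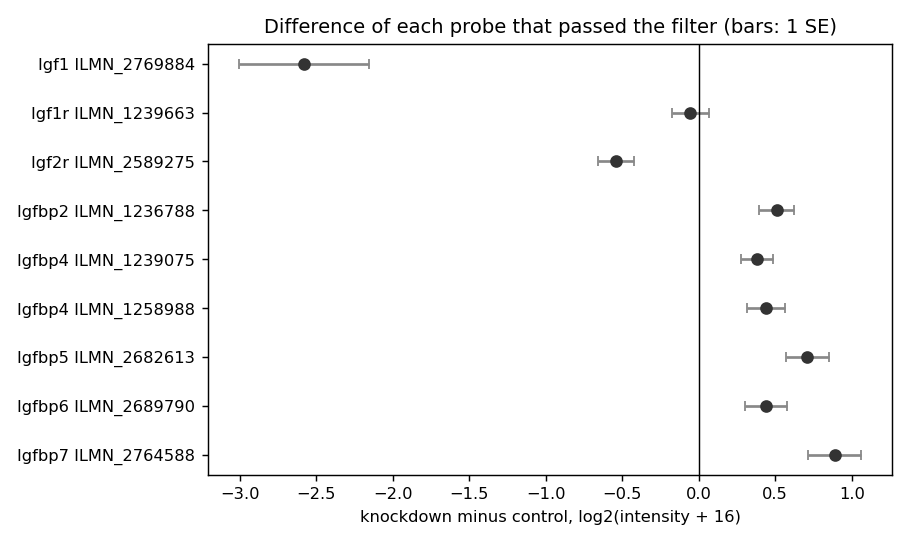
Knockdown minus control on the log2(intensity + 16) scale for the same 9 probes; points are differences and bars are 1 SE. The 6 binding protein probes lie between 0.38 and 0.89, Igf1r lies at -0.054, Igf2r at -0.54 and Igf1 at -2.58.

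Set among all genes, the binding proteins lay on the upper side of a broad distribution. Igfbp5 had 4.79% of genes above it, Igfbp2 8.89%, Igfbp4 11.5% and Igfbp6 11.7%. By the distance between profiles over the 5 arrays, each centred on its own mean, the gene most like Igf1 was Tfec, at a root mean square distance of 0.286 on the log2 scale. Myo7a and Klb followed at 0.290 and 0.330. Tfec read 195 and 196 units in control cells and 45.1, 13.3 and 11.5 units in knockdown cells, so like Igf1 it was lower on all 3 knockdown arrays. The genes most like Igfbp7 were Nmral1 at 0.050, Cbln1 at 0.052 and Snrnp70 at 0.068. Cbln1 read 106 and 83.2 units in control cells and 200, 137 and 217 units in knockdown cells, with knockdown replicate 2 the lowest of its group, as for Igfbp7. This distance, over 5 arrays in 2 groups, served only to name genes and was not tested.

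**Figure D3:**
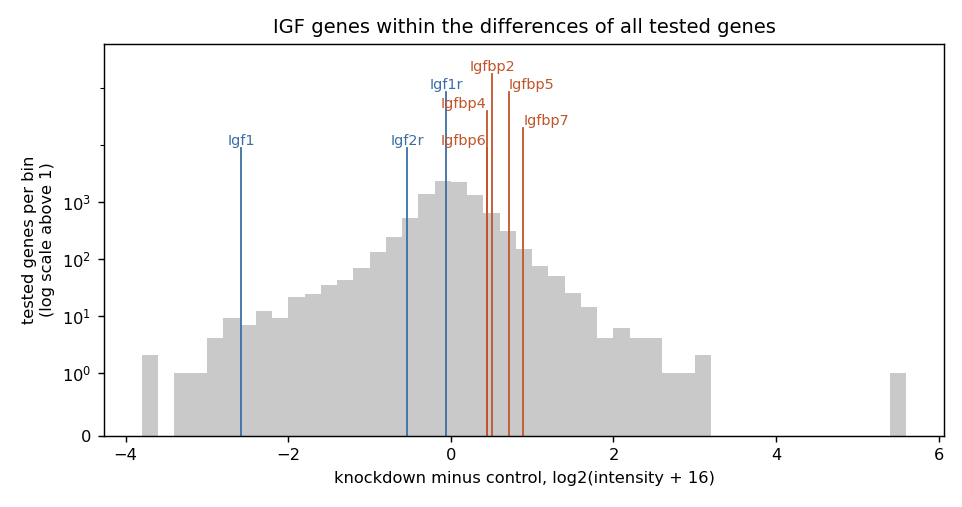
Number of the 9685 genes in each 0.2-wide bin of the knockdown minus control difference, log2(intensity + 16), on a count axis that is logarithmic above 1. Vertical lines mark the 8 IGF genes, the binding proteins in orange from 0.44 to 0.89 and the ligand and receptors in blue; line height has no meaning.

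The other genes of the pathway were taken from a list of 73, of which 62 had a probe and 45 entered the fit. Of these, 3 rose, 7 fell and 35 were not called. Among the 7, Ccn1 passed the noise filter through the control arrays alone, so its direction was set by the filter. The 10 called were 22.2% of the 45 in the fit, against 17.0% of all genes, and the median difference of the 45 was -0.072 against 0.005. Leaving out either control array lowered the number called to 4. All adjusted p-values below are from limma over every probe in the fit. The pathway list was chosen with earlier results of these data known, so its counts and p-values are a description and not an independent check.

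Among ligands, Igf2 rose while Igf1 was lower. Igf2, the main fetal IGF, read 5356 units on both control arrays and 8716, 8394 and 8860 units on the knockdown arrays (ILMN_2597769). It rose by 0.69 (SE 0.0920, limma adjusted p = 0.0074), and missed the threshold when control replicate 2 was left out (adjusted p = 0.052). The control values were identical, so their spread of 0 says little about the error of this probe. Ins2, an insulin gene, read 25.9 and 22.8 units in control cells and 25.4, 9.14 and 3.01 units in knockdown cells. These readings are near or under the noise threshold. Ins2 differed by -0.58 and was not called (limma adjusted p = 0.26). The insulin receptor gene Insr and its relative Insrr had probes that did not pass the noise filter, with Insr between -7.93 and 14.9 units.

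Of 6 genes in the fit for serum carriers or proteins with an IGFBP-type domain, 1 rose and 2 fell, against 8.99% and 7.97% of all genes. The 3 not called were Ccn2, Htra3 and Crim1 at 0.16, 0.14 and -0.21. Htra1, a secreted serine protease, read 1077 and 1030 units in control cells and 226, 188 and 187 units in knockdown cells. It fell by 2.31 (SE 0.118, limma adjusted p = 0.00081), and its groups were far apart. Ccn1, a matrix protein of the CCN family with an IGFBP-type domain, was under the noise threshold on all knockdown arrays. On the offset scale its control mean was 2.05-fold above the noise threshold, which bounds the knockdown arrays, and that of its other probe 1.70-fold. Ccn1 passed the noise filter through the control arrays alone, so its direction was set by the filter. Neither its call nor these bounds are support for a fall. Igfals, the acid-labile subunit that carries IGF complexes in serum, was under the noise threshold in control replicate 1. It was called higher by 1.28 (SE 0.244, limma adjusted p = 0.021), from 14.7 and 28.4 units to 81.3, 92.0 and 52.5 units. The size was 0.70 with an offset of 64 and 1.65 with an offset of 4. Leaving out control replicate 1, or knockdown replicate 1 or 2, ended that call (adjusted p from 0.051 to 0.10).

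Of 7 genes of IGFBP proteases and their inhibitors in the fit, 1 rose and 0 fell. That is 14.3% called, near the 17.0% of all genes. Stc1, a stanniocalcin whose human protein inhibits the protease PAPP-A, read 82.3 and 65.3 units in control cells and 418, 378 and 376 units in knockdown cells. It rose by 2.18 (SE 0.123, limma adjusted p = 0.00081), with the groups well apart. Its relative Stc2 differed by -0.43 and Pappa, the protease that cleaves IGFBP4, by -0.26, and neither was called (limma adjusted p = 0.056 and 0.37).

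Of 7 genes of mannose 6-phosphate sorting in the fit, 3 fell and 0 rose, where 7.97% of all genes fell. Gnptg and Gnptab encode subunits of the phosphotransferase that makes the sorting tag. The brighter Gnptg probe (ILMN_2731999) fell by 0.68 (SE 0.104, limma adjusted p = 0.011) and Gnptab fell by 0.59 (SE 0.149, adjusted p = 0.046). Gga2, an adaptor that sorts the receptors of the tagged enzymes, fell by 0.56 (SE 0.0945, limma adjusted p = 0.014). Its means were 8261 ± 235 (SD, n = 2) units in control and 5602 ± 190 (SD, n = 3) units in knockdown arrays. All 3 lost their calls without either control array, with adjusted p from 0.055 to 0.19, and Gnptab also without knockdown replicate 2 or 3. With the replicate number as a block none of the 3 was called (limma adjusted p from 0.052 to 0.12). M6pr, the gene of the cation-dependent mannose 6-phosphate receptor, differed by 0.16 and was not called (limma adjusted p = 0.39).

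Of 9 adaptors and receptor regulators in the fit, 0 were called, against 17.0% of all genes, with differences from -0.26 to 0.38. Irs1, a main docking protein of the receptor, was below 0 on all arrays, and Irs2 had no named probe. Of 12 genes of the PI3K, Akt, mTOR and FoxO group, 1 fell and 0 rose, against 7.97% and 8.99% of all genes. The catalytic subunit gene Pik3cb fell by 0.45 (SE 0.0951, limma adjusted p = 0.029), but leaving out any 1 of the arrays ended the call (adjusted p from 0.059 to 0.14). Akt2 differed by -0.073 and Foxo1 by -0.11, and neither was called.

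Among genes for IGF2 mRNA-binding proteins, Igf2bp3 fell by 1.06 (SE 0.123, limma adjusted p = 0.0048), from 508 and 490 units to 253, 242 and 203 units. Its other probe fell by 0.97. Igf2bp1 read 3067 and 2945 units in control cells and 2684, 2338 and 2574 units in knockdown cells. It differed by -0.25 without overlap of the groups and was not called (limma adjusted p = 0.17). Igf2bp2 had no named probe.

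**Figure D4:**
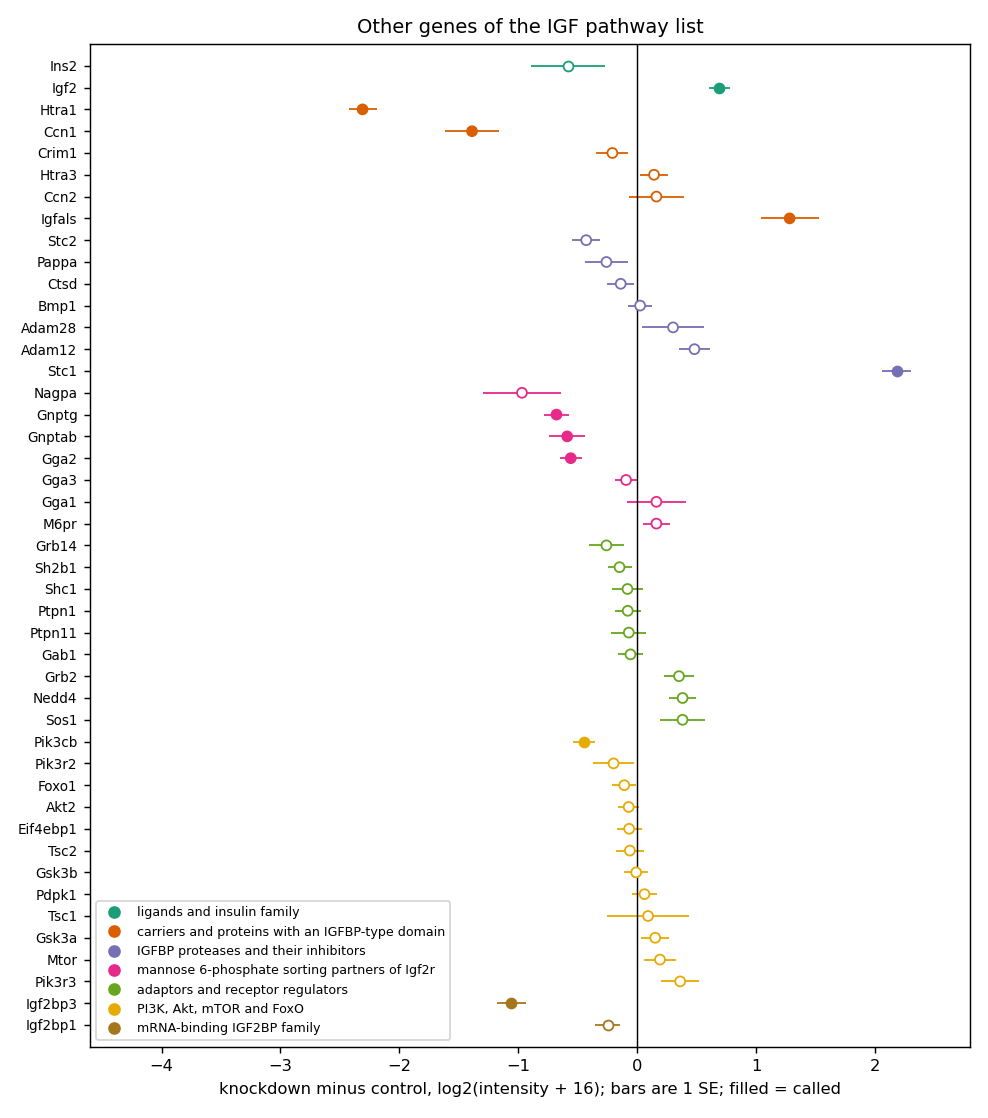
Knockdown minus control, log2(intensity + 16), for the 45 other pathway genes in the fit, coloured by their role; bars are 1 SE and filled points are called genes. Stc1 at 2.18 and Htra1 at -2.31 lie farthest out, and the adaptor genes lie between -0.26 and 0.38.

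Values of the targeted genes and of cell type markers on the same arrays are given next. The marker lists were chosen with earlier results of these data known, so their counts are a description and not an independent check. Sox17 fell by 2.60 (SE 0.125, limma adjusted p = 0.00081) and Sox7 fell by 1.40 (SE 0.126, limma adjusted p = 0.0021). Of 13 extra-embryonic endoderm markers in the fit, 13 were called lower, against 7.97% of all genes. Ttr and Lama1 passed the noise filter through the control arrays alone, so their direction was set by the filter. The list had a summed intensity of 90960 to 92036 units in control and 22341 to 25319 units in knockdown arrays. Of that list, Thbd and Afp did not pass the filter, and Afp was under the noise threshold on every array. Embryonal carcinoma markers had 3 higher and 1 lower of 9, against 8.99% and 7.97% of all genes. Their sums were 38396 to 42039 units in control and 47358 to 48373 units in knockdown arrays. Esrrb, Nanog and Pou5f1 made up most of these sums, and of them only Nanog was called. Lin28a was the gene called lower. Fibroblast and mesenchyme markers in the fit were called higher in 5 of 5, against 8.99% of all genes. One of them, Dcn, passed the noise filter through the knockdown arrays alone, so its direction was set by the filter. The list had sums of 470 to 493 and 1332 to 1421 units over 11 genes. Loxl1 made up most of them, at 270 and 292 units in control and 1010, 905 and 943 units in knockdown arrays. Col1a1 did not pass the filter, and Col1a2, Col3a1, Lum, Postn and Fap were under the noise threshold on every array. The smooth muscle list had 1 higher of 1, against 8.99% of all genes, with sums of 73.8 to 86.4 and 410 to 583 units. That gene was Acta2, whose probe ILMN_2693895 made up nearly all of the sums. The other Acta2 probes, ILMN_2710354 and ILMN_2744825, were under the threshold on every array and their groups overlapped. Tagln, Cnn1 and Myh11 of this list were under the threshold throughout. The part of these marker differences in the IGF gene differences was not tested.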

How the data were processed

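Total RNA of 5 F9 samples was labelled as biotinylated cRNA and hybridised to Illumina arrays, per the labels' protocols. The deposited values are normalized intensities on a linear scale, from -37.5 to 49024 for 24613 probes. Between 29.1% and 29.2% of values per array lay below 0 and the sorted arrays differed by at most 0.394, so background had been subtracted and the arrays brought to 1 distribution before deposit. The sources used here do not give the method. This step removes any overall difference in RNA amount. Another table of 10 per-sample columns, whose headings match no label, was not used. Probe names came from the platform annotation, checked by gene identifier against RefSeq of GRCm38.p6.

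Values below 0 were set to 0, 16 was added and log2 taken. Probes above the noise threshold (the 90% quantile of the sizes of an array's values below 0) on at least 2 arrays were fitted with limma 3.58.1 in R 4.3.3 (group only, 3 residual degrees of freedom), with Benjamini-Hochberg adjustment over 13624 probes. A gene took its brightest fitted probe. A probe under the threshold on all arrays of a group gives a bound, the brighter group's mean against the higher of threshold and signal. Figures used Python 3.11.15 and matplotlib 3.10.9. The number of arrays limits the precision.

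The IGF genes and all lists were chosen with earlier results of these data known. Named beside the IGF genes were the up to 3 called genes of largest difference per sublist, 7 fixed pathway genes, and the 3 genes nearest in profile to the members with the largest rise and fall; other genes named were picked after their values were seen. Alternatives were the offset, the noise filter, each array left out, a replicate block, the probe rule and a trended prior variance.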

Additional observations from a re-analysis of the deposited data

How the results depend on the processing

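The differences of the IGF probes kept their sign under every alternative run on them, except Igf1r, which ranged from -0.11 to 0.024. Igf1 ranged from -3.33 to -1.55, Igf2r from -0.60 to -0.45, Igfbp2 from 0.45 to 0.58, Igfbp4 from 0.30 to 0.53 over both probes, Igfbp5 from 0.60 to 0.81, Igfbp6 from 0.22 to 0.58 and Igfbp7 from 0.56 to 1.06. With every probe tested and no noise filter, 0 of the IGF genes were called. With an offset of 4, 2 were called, Igfbp5 and Igfbp7. An offset of 64, a trended prior variance or the mean of a gene's probes each gave 4 higher and 2 lower, with Igfbp4 among them. With only probes above the threshold on all arrays, 5 were higher, with Igfbp4 and Igfbp6 among them, and 1 was lower. Igf1 was not in that fit. Without the noise filter, called genes numbered 770 (367 higher, 403 lower), against 1643 (871 and 772), while called marker genes numbered 15 (4 higher), against 23 (9). Of the named pathway genes, Ccn1, Igfals and Gnptab were not called there, and Gnptab was not called with an offset of 4 either (limma adjusted p = 0.069). An offset of 64 gave 1167 lower genes and 5 higher pathway genes. A trended prior variance gave 2621 called genes (1360 higher, 1261 lower) and 5 higher pathway genes, and there Igf2bp1 was called (limma adjusted p = 0.044). Over the fits that leave out 1 array, called genes ranged from 468 to 1179 (246 to 577 higher, 222 to 602 lower), pathway genes from 4 to 11 (2 to 4 higher, 2 to 8 lower) and marker genes from 16 to 21 (4 to 7 higher, 11 to 14 lower). Fewer arrays leave fewer residual degrees of freedom, and an arm with 1 control is assumed to vary like the knockdown arm. Replicate numbers 1 and 2 occur in both groups, but nothing in the labels says that they pair arrays. The deviations of same-numbered arrays from their group means correlated at 0.007 and 0.073 across probes. Control replicate 1 and knockdown replicate 3, of unlike number, correlated at 0.065. With 2 controls the deviations of one mirror those of the other, so these values cannot decide whether arrays were paired. With the replicate block, 828 genes were called (416 higher, 412 lower) and the pathway list had 4 lower genes, without the calls of Gga2, Gnptab, Gnptg and Pik3cb; of the IGF genes, Igfbp5, Igfbp7 and Igf1 were called. The cause of these moves was not tested. Signals near the noise threshold, as for Igf1r, Igfbp6, Igfbp7 in control cells and Igf1 in knockdown cells, limit what a difference can show.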
